A study of Anguilla anguilla with 45 samples.

Results

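The 103 contigs described here averaged below the common reference over caudal fin and liver of the European eel, Anguilla anguilla, and were chosen from 992 contigs on the array. A contig is an assembled transcript sequence, and its value on an array is a log2 ratio of the eel's RNA to the reference RNA. F was the mean over 10 fin arrays, those of 5 unexposed laboratory eels and 5 wild Certes eels, and L was the mean over 10 liver arrays, those of 5 unexposed and 5 cadmium-exposed laboratory eels. Of the 992 contigs, 817 had at least 5 values in each of F and L. A member had a difference F minus L between -2 and 2 and an average of F and L at or below -0.75. These 20 arrays therefore chose the members, and how far they lie below the reference is described without a test. Where tests below use these arrays, they compare groups of arrays with each other.

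The other 25 arrays, all of fin, were not used in the choice. They were 5 each from wild eels of the Gironde and of the Garonne, from laboratory eels given polychlorinated biphenyls (PCBs) in the diet at 50 or at 300 ng/g, and from laboratory eels held in water with 4 µg/L cadmium (Cd). The labels write the PCB dose as ng/g PS and do not explain what it is relative to, and they give no exposure for the wild eels. Every eel's total RNA was labelled with Cy3 and hybridised beside a common Cy5-labelled liver RNA. That common RNA was pooled from 30 wild eels caught at Certes, 15 in each sampling year. The study's title names its question, whether Cd and PCB effects can be detected in fin RNA, a sample that need not harm the eel.

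In a common-reference design each sample is compared with the same pooled RNA, so that samples can be compared with one another through it. A ratio below 0 then means less hybridised signal from the eel than from the pool, relative to the middle contig of that array, because every deposited array had a median of 0. The liver is the organ of detoxification and of plasma protein synthesis, Cd and PCBs accumulate there, and the fin is mostly skin, connective tissue and bone. None of the 992 contig numbers, and none of the 103 members, matched a name in the gene table used here, so contigs are given by number and no function is given for any of them. For the same reason the labelled tissues were not checked against marker genes.

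The direction of the ratio, eel over reference, is likely, given the dye of each channel, but no source used here states it. The base of the logarithm is not stated either, and the values were taken as log2. With the other direction the members would lie above the reference and each sign below would turn. All 45 arrays had the same dye orientation, so a dye effect on a contig and a difference between eel and reference RNA cannot be told apart. In bulk tissue, fewer cells of a type and less RNA per cell cannot be told apart either. An array held values for 389 to 988 contigs, and 21.1% of all values were missing. Of 990 pairs of arrays, 9 correlated below -0.3 over all contigs, and 7 of these included the fin array of fish 26 at 50 ng/g PCBs, with a lowest value of -0.53. The deposited signs were kept because the labels state the dyes. Nothing in the labels says that the fins and livers numbered alike came from 1 animal, and none gives the slide or date of a sample.

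F had a median of -1.09 over the members and ran from -3.41 to 0.05, and L had a median of -1.20 and ran from -3.64 to 0.13. In 52 members both F and L were at or below -0.75. In 25 members F was at or below -0.75 and L was not, and in 26 members L was and F was not. F was the lower of the pair in 50 members and the higher in 53. An average at or below -2 was reached by 11 members, and 46 members lay between -0.75 and -1. Over all 817 contigs with enough values, F and L had a Spearman correlation of 0.13. This correlation is a description across contigs, which are not independent replicates and share the reference channel.

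**Figure D1:**
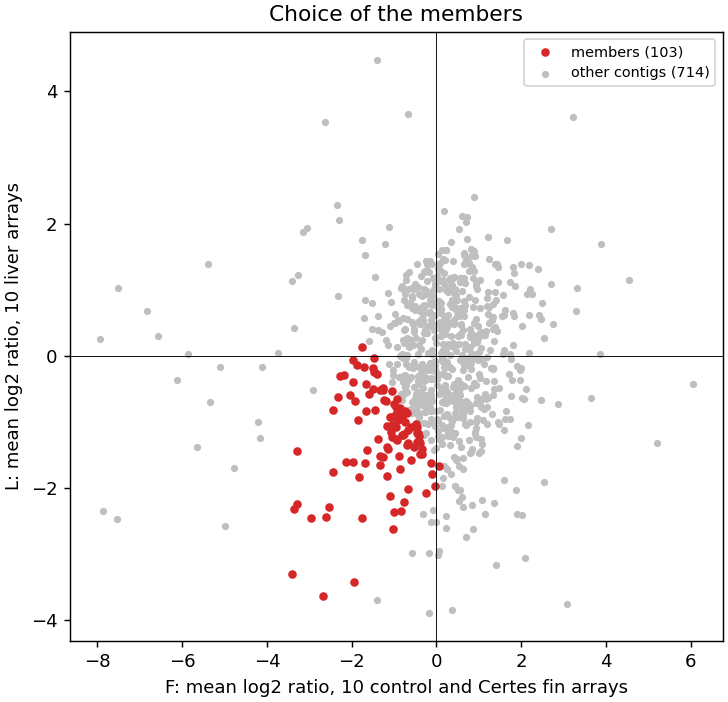
Mean log2 ratio of each of 817 contigs in the 10 control and Certes fin arrays (horizontal axis, F) and in the 10 liver arrays (vertical axis, L), with the 103 members in red and the other 714 contigs in grey. The members fill the lower left corner, with only 1 above 0 in fin and 1 above 0 in liver.

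Just inside the limit on the average were contig_18304, at -0.759 with F at -1.48 and L at -0.03, and contig_15342, at -0.759 with F at -0.48 and L at -1.04. Just outside it were contig_16355, at -0.744, and contig_15738, at -0.743. The limits on the difference left out 46 of the 149 contigs whose average was low enough, 24 with F higher and 22 with F lower. contig_6291 was just inside, with a difference of 1.94, and contig_2298 was just outside, with 2.01. contig_4484 was inside at the lower limit, with a difference of -1.95, and contig_33258 was outside, with -2.40.

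contig_38890 and contig_20094 had the lowest averages, at -3.36 and -3.16. On control fins contig_38890 stood at -3.44, -3.02, -3.78 and -2.85, and on Certes fins at -5.18, -3.56 and -2.06. On liver arrays it stood at -3.04, -5.79, -1.30, -0.80 and -1.0 in Cd-exposed eels and at -8.53 and -2.70 in unexposed eels. All these values were negative, but the livers alone spanned more than 7 log2 units. contig_20094 had values of -5.94, -9.06, -2.20 and 0.75 in Cd livers and of -2.36 and -3.03 in control livers. Its fin values were -2.91 and -4.53 in controls and between -3.84 and -0.63 in 4 Certes eels. The lowest averages thus rested on few and widely spread arrays.

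In the 25 fins that had no part in the choice, 94 of the 103 members had a mean below 0 (91.3%), against 265 of the 714 other contigs with enough values (37.1%). The other contigs lack the members, which were chosen partly for being low in fin, so their share is lower than that of all contigs with enough values. The median of these means was -0.59 over members and 0.15 over the other contigs. Members with a lower average of F and L also had a lower mean in these fins, with a Spearman correlation of 0.56 across the 103 members. The same correlation was 0.52 across the 714 other contigs. Both are descriptions across contigs that share arrays.

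This average hid a split between the groups of eels. The mean over members was -0.09 ± 0.31 on Gironde arrays (SD, n = 5 arrays), with 4 arrays between -0.08 and 0.17 and eel A315 at -0.62. On Garonne arrays it was -1.34 ± 0.35, with single arrays between -1.67 and -0.86. Certes fins, which chose the members, were at -1.15 ± 0.27. No Gironde array was as low as the highest Garonne array as deposited, but with fin arrays recentred on the 65 contigs present on all of them the groups overlapped, at -0.60 ± 1.30 in Gironde and -0.64 ± 0.52 in Garonne fins. The Gironde mean also changed with the set of members averaged, and the reason was not tested. Over the 9 members with a value on all 45 arrays it was -1.11. The same 9 members gave -1.35 in Garonne, -1.14 in control and -1.56 in Certes fins. On these 9 members alone Gironde fins were thus not near the reference, and the gap to Garonne was small.

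Among the control and PCB fins the lower dose stood apart, so the values did not follow the order of dose. Control fins, which chose the members, were at -1.39 ± 0.19 (SD, n = 5), the 50 ng/g PCB fins at -0.11 ± 0.18 and the 300 ng/g PCB fins at -1.41 ± 0.17. Single arrays ran from -0.37 to 0.08 at 50 ng/g and from -1.70 to -1.24 at 300 ng/g. The members were therefore close to the reference at the lower dose and well below it at the higher one, with no overlap between the arrays of the doses. Few contigs of any kind were called away from the reference at 50 ng/g in the tests below, so few calls there are not particular to members.

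Cd fins averaged -0.75 ± 1.02 (SD, n = 5), and 1 array made most of this spread. Fish 45 was at 1.03, and fish 47, 48, 49 and 50 were at -0.99, -1.46, -1.27 and -1.09. Without fish 45 the Cd mean was -1.20 ± 0.21 (n = 4). The livers of Cd-exposed eels, including the liver numbered 45 at -1.29, averaged -1.17 ± 0.16, against -1.32 ± 0.35 in control livers.

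**Figure D2:**
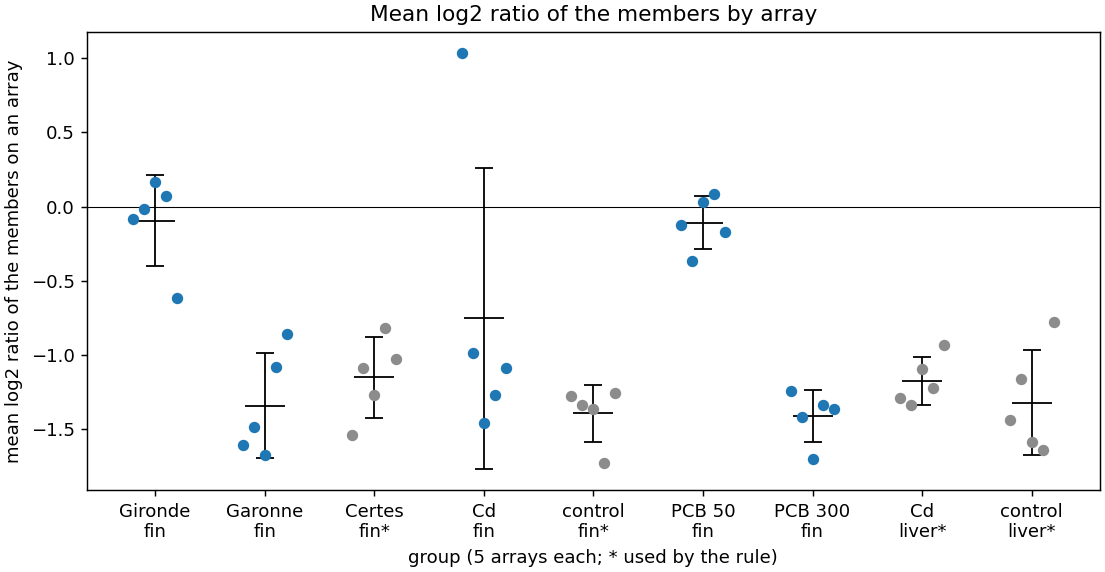
Mean log2 ratio of the members with a value on an array (vertical axis) for each of 45 arrays, with the group mean (long bar) and SD (whiskers, n = 5). Groups marked with an asterisk, in grey, chose the members; Gironde and 50 ng/g PCB arrays lie near 0, and fish 45 stands apart at 1.03 among the Cd fins.

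A similar split was seen when members were ranked within each array, a measure that neither centring nor scaling of an array changes. The mean percentile of the members among all contigs with a value was 50.5 ± 7.27 on Gironde arrays (SD, n = 5), 31.3 ± 2.47 on Garonne arrays and 23.3 ± 5.93 on Certes arrays. It was 21.3 ± 2.57 in control fins, 45.7 ± 4.32 at 50 ng/g and 28.2 ± 7.30 at 300 ng/g PCBs, and 28.2 ± 15.0 in Cd fins. In livers it was 26.4 ± 2.81 with Cd and 25.1 ± 2.23 without. A percentile of 50 is the middle of an array, so by group mean the members were near the middle in Gironde fins and below it elsewhere. Single arrays overlapped, with Gironde eel A315 at 38.3, fish 25 at 50 ng/g PCBs at 51.3 and Cd fin fish 45 at 54.7. The rank was taken among contigs with a value on the array, so missing values could still move it. On the log2 scale, Gironde lay above Certes as deposited, but after the same recentring Gironde was at -0.60 and Certes at -0.41, so that this order turned.

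Member by member, the group mean was below 0 for 96 of 103 members at 300 ng/g PCBs, 82 of 103 in Cd fins and 67 of 89 in Garonne fins, where 14 members had no value. It was below 0 for 54 of 103 members in Gironde fins and 51 of 103 at 50 ng/g. Over all contigs with a value, 49.6% of group means were below 0 at 300 ng/g, 45.9% in Cd fins, 47.4% in Garonne fins, 52.0% in Gironde fins and 43.9% at 50 ng/g. The members' share was therefore near that of all contigs in Gironde and 50 ng/g fins. Without fish 45, 97 of the 103 Cd means were below 0. Without eel A315, 40 of 101 Gironde means were.

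**Figure D3:**
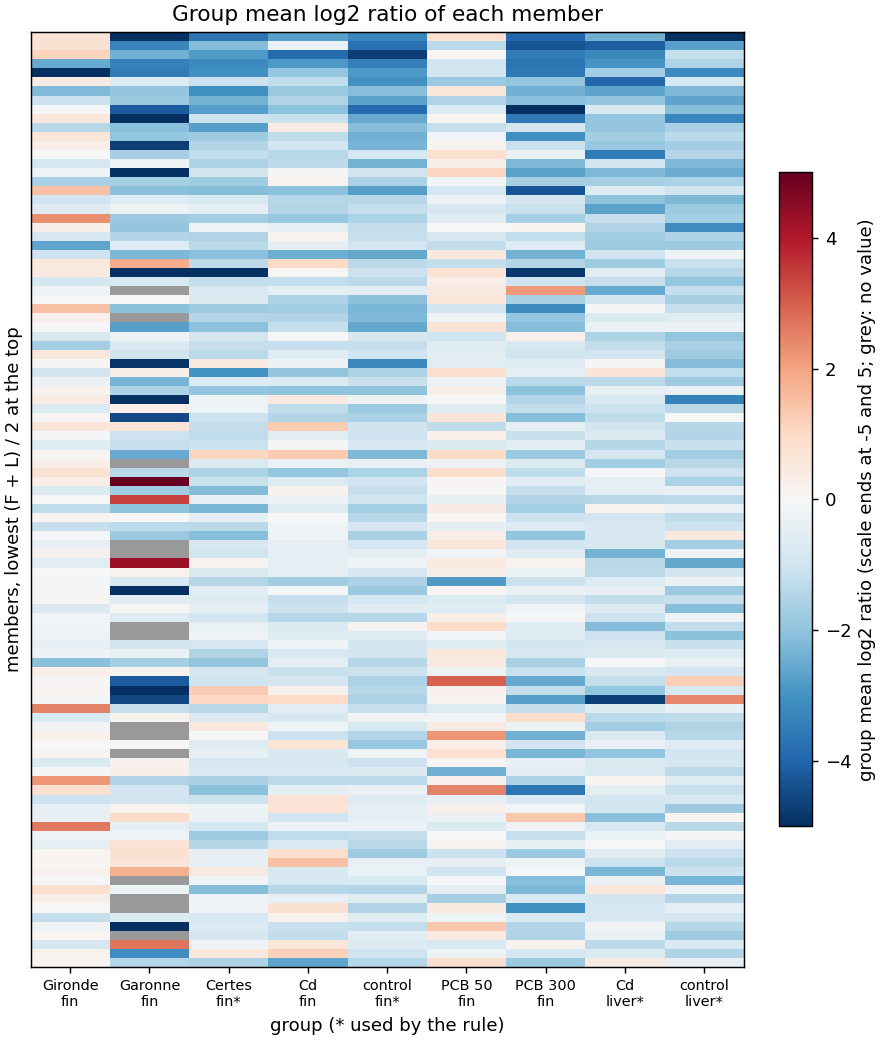
Group mean log2 ratio of each of the 103 members (rows, lowest average of F and L at the top) in the 9 groups (columns), in blue below 0 and red above 0, with the scale ending at -5 and 5 and grey where no array held a value. The Gironde and 50 ng/g PCB columns are pale or mixed over most rows, and 14 rows are grey in Garonne.

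The ratio of each contig was tested against 0 in the fin groups that did not choose the members. The test was limma with 1 fit of all 35 fin arrays, and a contig was called where the adjusted p over all contigs tested was under 0.05. In Garonne fins 30 of the 64 members with at least 2 values were called lower than 0 (46.9%), where 24.5% of all 563 contigs tested were. At 300 ng/g PCBs 38 of 103 members were called lower (36.9%), against 15.5% of 906 contigs, and in Cd fins 20 of 103 (19.4%), against 5.26% of 988 contigs. Called higher were 1 member in Garonne fins, where 21.8% of all contigs were, and 0 members at 300 ng/g and in Cd fins, where 10.6% and 4.96% were.

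In Gironde fins 5 of 101 members were called lower, against 2.96% of 947 contigs, and 4 were called higher, against 5.91%. At 50 ng/g PCBs 1 of 101 members was called lower, against 0.407% of 984 contigs, and 0 were called higher, against 0.305%; 11 members (10.9%) had an unadjusted p under 0.05 in either direction, as did 9.76% of all contigs. As deposited, the Gironde and 50 ng/g shares were near the background.

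The counts moved with the scaling of the arrays. In Garonne fins 15 members were called lower on recentring, 8 on scaling to one spread and 10 with quantile normalization, or 23.4%, 12.5% and 15.6% of members, against 16.7%, 13.7% and 12.4% of all contigs. Scaling left 17 members at 300 ng/g PCBs and quantile normalization 20, or 16.5% and 19.4% of members, against 6.18% and 6.62% of all contigs. In Gironde fins the count was 13 on recentring, 10 on scaling, 10 with quantile normalization and 11 with array weights, or 12.9%, 9.90%, 9.90% and 10.9% of members, against 5.39%, 9.08%, 6.02% and 6.76% of all contigs. In Cd fins it was 13 on recentring, 33 with quantile normalization and 53 with array weights. These Cd counts are given without the share of all contigs, so they do not compare members with other contigs.

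The counts also moved with single arrays. The Cd count was 30 without fish 45, but 13, 7, 8 and 12 without fish 47, 48, 49 and 50. The Gironde count was 3 without A302 and 2 without A310, and 5 without A315. The 50 ng/g count was 0 without fish 26 and 4 without fish 29. When each group was fitted by itself, without the other fin groups in the estimate of the spread, 24 members were called lower at 300 ng/g and 0 in Cd, in Gironde and in 50 ng/g fins. All counts in this paragraph are without the share of all contigs. They show how the calls moved and not how members compare with other contigs.

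**Figure D4:**
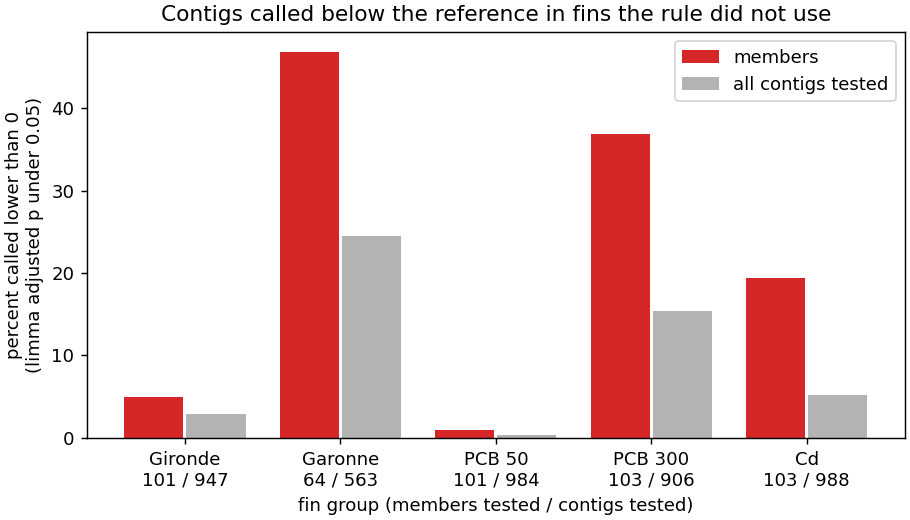
Percentage of contigs called lower than 0 (limma adjusted p under 0.05) among members, in red, and among all contigs tested, in grey, in the 5 fin groups that did not choose the members. The members' bar is higher at 46.9% against 24.5% in Garonne, 36.9% against 15.5% at 300 ng/g PCBs and 19.4% against 5.26% in Cd fins.

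contig_15859 had the lowest mean of all members over these fins and was measured on all 5 arrays of each laboratory group. It stood at -0.50, -3.76, -3.58, -3.50 and -3.10 in Cd fins, a mean of -2.89 ± 0.39 (SE, limma adjusted p = 4.89e-06), where fish 45 was the array nearest to 0. At 300 ng/g PCBs it stood at -3.39, -4.08, -2.84, -4.12 and -3.82, and at 50 ng/g at -1.62, -2.31, -0.10, -0.14 and -0.80. The doses did not overlap. Of the Gironde fins A315 alone held a value, -2.52, and in Garonne fins it lay between -3.97 and -2.83. When Cd fins were fitted by themselves its call there ended.

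contig_1726 was called lower than 0 in 4 of the 5 groups, which no other member was. Its Cd fins stood at 1.92, -2.25, -2.49, -3.53 and -2.98, with fish 45 again apart. Its Gironde fins stood at 0.01, -3.01 and -3.68, a mean of -2.23 ± 0.71 (SE, limma adjusted p = 0.045). This Gironde call ended without A306, A310 or A315, at -2.23, -1.83 and -1.50, and when Gironde was fitted by itself. At 300 ng/g its 5 values lay between -3.81 and -1.06, while its 4 values at 50 ng/g were above 0, from 0.13 to 1.58.

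contig_3958 had the next lowest mean over these fins. In Gironde A315 alone held a value, at -6.85, and it lay between -3.98 and -2.84 on the 5 Garonne arrays. At 300 ng/g PCBs it stood at -3.64, -3.53, -2.35, -4.21 and -4.19, and at 50 ng/g at -3.35, -1.69, 1.72, 0.32 and -1.72. The 50 ng/g arrays were spread on both sides of 0, and fish 25 overlapped the higher dose.

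contig_16406 and contig_859 were the called members farthest below 0 at 300 ng/g PCBs. contig_16406 stood at -6.56, -5.60, -4.50, -5.29 and -5.08, a mean of -5.41 ± 0.70 (SE, limma adjusted p = 8.85e-07). contig_859 had only 2 values there, -6.47 and -3.21, with a mean of -4.84 ± 1.19 (SE, limma adjusted p = 0.0045). Its call ended under quantile normalization, at -2.88, and with the group fitted by itself, and it was not testable without fish 32 or 33. In the Cd fins the called members farthest below 0 were contig_15859, given above, and contig_7138, at -3.14, -2.68, -5.93 and -3.71, a mean of -3.86 ± 0.72 (SE, limma adjusted p = 8.03e-04), a call that ended with Cd fins fitted by themselves.

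Among members with at least 2 values in Garonne fins, contig_859 and contig_12473 were farthest below 0. contig_859 stood at -5.79, -3.09, -3.85, -10.17 and -6.43, a mean of -5.87 ± 0.75 (SE, limma adjusted p = 1.21e-06). contig_12473 stood at -8.70, -3.71 and -4.81, a mean of -5.74 ± 0.89 (SE, limma adjusted p = 1.78e-05). contig_6291 was the 1 member called higher, on 2 arrays at 1.26 and 7.31, a mean of 4.29 ± 0.85 (SE, limma adjusted p = 1.71e-04). That call ended with Garonne fitted by itself, and it was not testable without A359 or A362.

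The Gironde and 50 ng/g PCB fins had few called members, and single arrays carried several of them. contig_35278 stood at -0.38, -3.43, -4.55, -4.26 and -0.61 in Gironde fins, a mean of -2.65 ± 0.45 (SE, limma adjusted p = 7.90e-05). contig_33319, at 4.24 and 1.06, and contig_15834, at 4.22, 2.74 and 0.52, were called higher there (limma adjusted p = 0.0017 and 3.00e-04). These 3 calls ended with Gironde fitted by itself, and contig_33319 was not testable without A305 or A315. At 50 ng/g contig_8975 stood at -5.84, -1.10, -1.74 and -2.70, a mean of -2.85 ± 0.52 (SE, limma adjusted p = 0.0052). Without fish 26, its lowest array, the mean was -1.85 and the call ended, as it did with the group fitted by itself. With the sign of that array turned the mean was 0.07.

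At the other end, contig_29319 and contig_6291 had the highest means over the 25 fins. contig_29319 stood at 6.20, -0.16, 1.92, 0.03 and -0.58 in Cd fins, where fish 45 was the highest array, and between -0.51 and 1.99 in Garonne fins. Its liver values, which helped to choose it, were all negative, from -2.08 to -0.64. Its control and Certes fin values, which also helped to choose it, lay between -1.13 and 0.41.

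**Figure D5:**
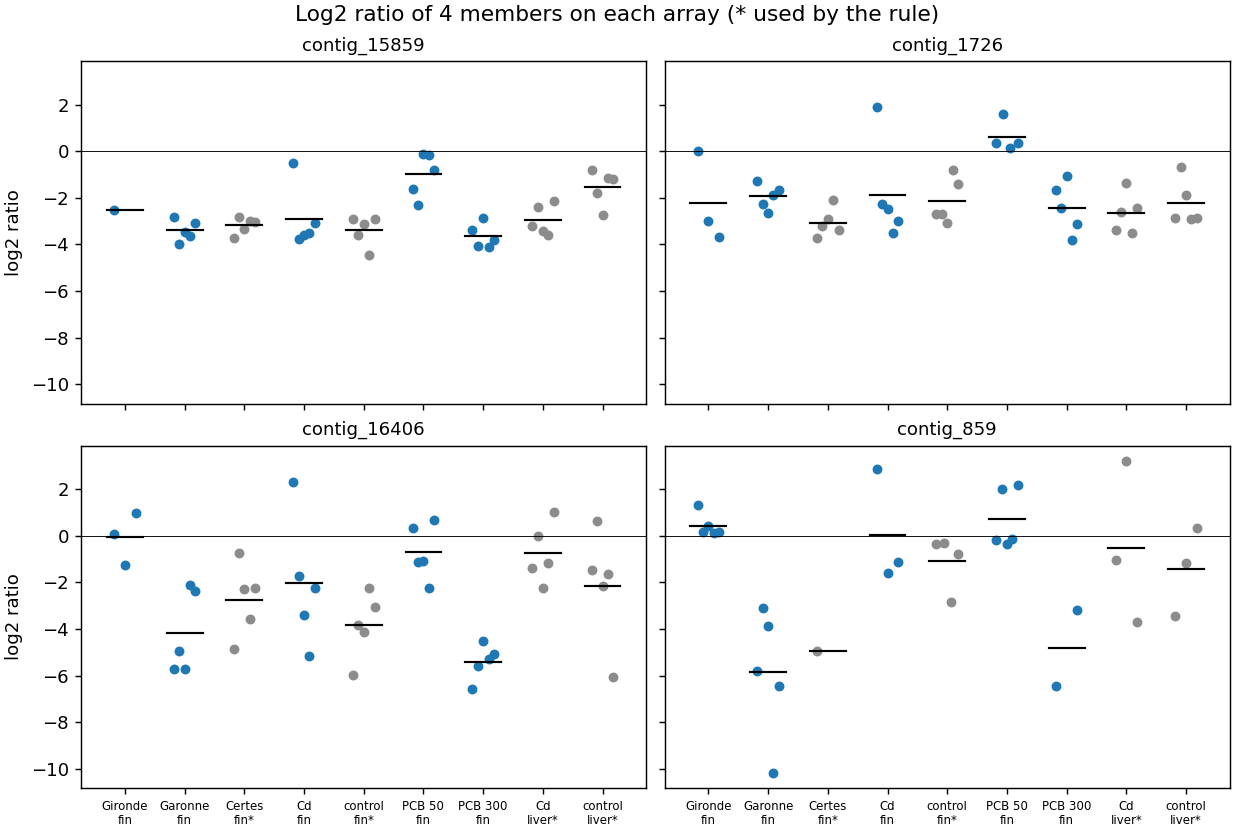
Log2 ratio on each array (points) and group mean (bar) of contig_15859, contig_1726, contig_16406 and contig_859 in the 9 groups; groups marked with an asterisk, in grey, chose the members. In contig_16406 the 300 ng/g PCB arrays lie between -6.56 and -4.50 and the 50 ng/g arrays between -2.25 and 0.70.

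Gironde and Garonne fins were compared with each other, and neither had chosen the members. Of 62 members tested, 15 were higher in Gironde and 2 lower (limma adjusted p under 0.05). Over all 526 contigs tested, 45.2% passed, 27.2% higher and 18.1% lower, against 27.4% of members, and the median difference was 0.58 over members and -0.15 over all contigs. contig_859 stood at 1.31, 0.17, 0.42, 0.13 and 0.14 in Gironde fins, above all 5 Garonne values given above, a difference of 6.30 ± 1.06 (SE, limma adjusted p = 8.64e-05). contig_12473 lay between -0.45 and 0.22 on the 5 Gironde arrays, a difference of 5.69 ± 1.12 (limma adjusted p = 4.25e-04). The groups did not overlap in either contig.

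The 2 members lower in Gironde were contig_6291 and contig_35278. contig_6291 lay between -0.89 and -0.06 on 4 Gironde arrays, against the 2 Garonne values above, a difference of -4.83 ± 1.04 (SE, limma adjusted p = 5.94e-04), and it was not testable without A359 or A362. contig_35278 stood at -0.05, -1.19, -0.31, -1.68 and 0.10 in Garonne fins, so that it overlapped Gironde, with a difference of -2.02 ± 0.64 (SE, limma adjusted p = 0.011). This call ended without A306, at -1.55, and in a fit of only these 10 arrays. With at least 4 values per site, 6 members were higher and 1 lower, given without the share of all contigs.

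The PCB doses were compared in the same way. Of 101 members tested, 23 were lower at 300 ng/g than at 50 ng/g and 0 were higher (limma adjusted p under 0.05). Over all 900 contigs tested 13.6% passed, 8.33% lower and 5.22% higher. The difference had a median of -1.15 over members and -0.10 over all contigs, and it was negative in 84 members. The share of all contigs with a negative difference is not given, so this last count does not compare members with other contigs. contig_33324 stood at -5.21, -6.04, -0.84 and -2.33 at 300 ng/g, against 7.29, -0.63 and 0.79 at 50 ng/g, a difference of -6.08 ± 1.43 (SE, limma adjusted p = 0.0066). Its groups did not overlap, with -0.84 and -0.63 as the nearest values, and its call ended without fish 27 at -3.68 and in a fit of only these 10 arrays. contig_859 stood at -6.47 and -3.21 at 300 ng/g, against -0.16, 2.00, -0.35, -0.15 and 2.18 at 50 ng/g, a difference of -5.54 ± 1.40 (SE, limma adjusted p = 0.012). Its groups did not overlap, but its call ended under quantile normalization, at -3.88, and it was not testable without fish 32 or 33.

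The count of members that differed between the doses moved with the scaling. The 23 members became 5 when arrays were scaled to one spread, 6 with quantile normalization (5 lower and 1 higher), 13 in a fit of only these arrays and 15 without fish 32. The share of all contigs is not given for these settings, so whether members passed more often than other contigs is not read from them. The 50 ng/g array of fish 29 had the narrowest spread of all arrays, with an SD over contigs of 0.68.

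The comparisons with control or Certes fins use arrays that chose the members for being low, so nothing is read from their counts of members, and named contigs are given as values without a test. Of 101 members 12 were higher and 0 lower at 50 ng/g PCBs than in controls (limma adjusted p under 0.05), where 7.50% of all contigs passed, 4.54% higher and 2.96% lower. This count was 6 when control fish 6 was dropped, 4 when control fish 8 was dropped, and 7 when control fish 7 or 10, or the 50 ng/g fish 25, 26 or 28, was dropped. The share of all contigs is not given for these settings. contig_7138 stood at -0.97, -0.93, 3.88 and -1.63 in exposed fins, against -3.27 and -6.11 in control fins, a difference of 4.77.

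contig_15284 stood at 5.48 and 0.44 in 50 ng/g fins, against -1.46, -3.58, -2.85 and 1.57 in control fins, a difference of 4.54. The higher of the exposed values was that of fish 26, and with the sign of that array turned the difference was -0.94.

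Of 103 members 0 differed between 300 ng/g PCB fins and controls in limma, as did 0% of all 882 contigs, with 6 members (5.83%) and 4.42% of all contigs at an unadjusted p under 0.05. contig_15540 stood at -1.80, 0.20, -3.37, 1.31 and 0.51 in exposed fins, against -0.39, -3.16, -5.30 and -4.03 in control fins, a difference of 2.59. contig_33324, at -1.71, 2.78, -1.30, -0.29 and -1.22 in control fins, differed by -3.25.

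Cd fins gave 0 of 103 members against controls in limma, as did 0% of all 951 contigs, with 8 members (7.77%) and 7.89% of all contigs at an unadjusted p under 0.05. Without control fish 6, 1 member passed, a count given without the share of all contigs. contig_11347 stood at 4.98, -0.99, -0.15, -0.73 and -1.02 in Cd fins, against -1.91, -1.85, -2.57, -2.51 and -1.82 in control fins, a difference of 2.55, with fish 45 far above the rest. contig_15540 stood at 0.26, -0.24, -2.01, 1.86 and -1.32 in Cd fins, a difference of 2.93 from the control values above.

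Among wild eels, 10 of 99 members were higher and 0 lower in Gironde than in Certes fins (limma adjusted p under 0.05), where 18.1% of 850 contigs passed, 10.8% higher and 7.29% lower. contig_38890 stood at 0.44, 0.41, 0.68, 0.19 and 1.55 in Gironde fins, a difference of 4.25 from the 3 Certes values given earlier, which helped to choose it as the lowest member. contig_22142 stood at 0.18, 4.74, 2.71 and 1.61 in Gironde fins, against -2.20, -0.46, -1.47, -2.12 and -2.35 in Certes fins, a difference of 4.03.

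In Garonne against Certes fins 1 member was higher and 1 lower of 63 tested in limma, where 5.85% of 530 contigs passed, 3.77% higher and 2.08% lower. These were contig_6291, with a difference of 4.14, and contig_12473, with -5.23. In Certes fins contig_6291 lay between -0.67 and 0.97 on 5 arrays and contig_12473 stood at -1.21, -0.23 and -0.09. Only 1 member passed when A203, A205, A353, A359 or A362 was dropped, given without the share of all contigs.

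Livers of Cd-exposed eels were compared with control livers, groups that entered the choice alike through L. Of 102 members 0 passed in limma, as did 0% of 897 contigs, and 11 members had an unadjusted p under 0.05, 10.8% against 8.14% of all contigs. contig_3958 had the smallest p, at -2.17, -1.22, -1.13, -1.96 and -2.08 in Cd livers, against -3.45, -3.47, -2.55, -3.39 and -3.13 in control livers. All 5 Cd livers were above all 5 control livers, with a difference of 1.48 ± 0.31 (SE, limma adjusted p = 0.370). contig_28782 stood at -1.82, -2.05, -2.21 and -1.74 in Cd livers, against -0.82, -1.27, -0.28, -1.25 and -1.22 in control livers, a difference of -0.99 ± 0.28 (SE, limma adjusted p = 0.461), also without overlap.

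Control and Certes fins also entered the choice alike. Of 101 members 0 differed between them in limma, as did 0% of 876 contigs, with 4 members (3.96%) and 5.71% of all contigs at an unadjusted p under 0.05. contig_15540 stood in Certes fins at 0.93, 0.89 and -0.49, which overlapped the control values above, a difference of -3.66 ± 1.10 for control minus Certes (SE, limma adjusted p = 0.324). contig_130 stood at -1.32, -1.61, -1.61, -2.74 and -1.93 in control fins, against -1.32, -0.03, -0.89, 1.29 and -0.27 in Certes fins, a difference of -1.60 ± 0.61 (SE, limma adjusted p = 0.554). All 5 control arrays lay below all 5 Certes arrays, though fish 6 and A201 differed only beyond the second decimal.

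The Cd effect in fin was set against the Cd effect in liver, a comparison that also rests on control fins. The difference between these effects passed limma's threshold in 0 of 102 members and 0% of 868 contigs, with 6 members (5.88%) and 7.72% of all contigs at an unadjusted p under 0.05. contig_18304 stood at -4.03, -1.60, -2.67, -2.90 and -2.06 in Cd fins, against -2.29, -0.76, -1.10, -1.43 and -1.56 in control fins. In livers it stood at 0.06, 0.39, 0.74, 0.07 and 0.52 with Cd, against -0.27, -0.40, -0.55, -0.79 and -0.10 without. Cd arrays thus averaged lower in fin and higher in liver. contig_21417 stood at 3.08, -0.69 and 0.64 in Cd fins, against -0.75, -1.94, -3.48 and 0.02 in control fins. Its livers stood at -1.42, -4.23 and -8.35 with Cd, against 5.33, -0.29 and 2.17 without, the opposite order.

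Members low mainly in F and members low mainly in L are described apart. The split uses F itself, so lower values of the first set in other fins are not a separate result. Other contigs were not split in this way, so nothing particular to the members is read from it. Of the 25 members low mainly in F, 20 of 23 with a value in Garonne fins had a group mean below 0, with a median of -1.43. Of the 26 low mainly in L, 6 of 16 did, with a median of 0.16. At 300 ng/g PCBs the medians were -1.61 and -0.63, and in Cd fins -1.18 and -0.42. At 50 ng/g PCBs the order was the opposite, with medians of 0.35 and -0.13. In Gironde fins both were near 0, at -0.02 and -0.06.

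Over the 25 fins that did not choose them, 53 members had at least 20 values, and each was correlated with the mean of the other members. The median Pearson correlation was 0.43, and 21 of the 53 exceeded 0.5. Among 379 other contigs the median correlation with the member mean was 0.00, and 60 exceeded 0.5. The most similar contigs outside the set were contig_20751, at 0.91, and contig_19495, also at 0.91, each over 21 arrays. In control animals both were far below 0 in fins and near or above 0 in liver. contig_19495 averaged -5.30 ± 0.39 in control fins and 0.50 ± 1.34 in control livers (SD, n = 5 each), and contig_20751 averaged -3.40 ± 0.32 in control fins and 0.12 ± 0.50 in control livers. Not all fins were low: at 50 ng/g PCBs contig_19495 averaged 0.18 ± 0.79 (SD, n = 5) and contig_20751 -0.95 ± 0.92 (SD, n = 4), Cd fish 45 stood at 3.27 and 3.16, and Gironde eel A302 stood at 0.03 in contig_20751. These correlations share the arrays and their group structure, and they are given without a test.

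The SD among the arrays of a group had a median of 1.47 over members and 1.16 over all contigs in Cd fins, where fish 45 stood apart, and of 0.57 and 0.63 in control fins and 1.06 and 1.11 at 50 ng/g PCBs. In livers it was 0.61 over members and 0.51 over all contigs with Cd, and 0.89 and 0.77 without.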

How the data were processed

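The deposited table held the authors' log2 ratios of 992 contigs on 45 2-colour arrays. Every array had a median of 0, so centring had been done before deposit. How spots were background-corrected, filtered and averaged is not given in the sources used here. Missing values were left missing. The 180 columns of a scanner table, numbered by slide, match no sample title and were not used. Groups and fish numbers came from the sample titles. Arrays are few per group, which limits the precision. Whether arrays of a group came from separate tanks is not stated, so p-values measure only the spread between arrays. In the main fin tests this spread was pooled over all fin groups, so an SE can be smaller or larger than the group's own arrays would give.

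Tests used limma 3.58.1 (R 4.3.3; functions lmFit and eBayes) on group means. The 35 fin arrays made 1 fit and the 10 liver arrays another; the difference between Cd effects used the 20 control and Cd arrays. A contig was tested with at least 2 values in each group compared. Tests were two-sided, with Benjamini-Hochberg adjustment over all contigs tested in each comparison and a threshold of 0.05. The fitting was run on simulated data with independent normal errors and the missing values of the real arrays. The simulation had no shifts of whole arrays and gave a contig the same spread in every group. It therefore does not check the calls where arrays are shifted or spreads differ between groups. Within a group, no pair of arrays correlated above 0.880, and none was treated as a repeat deposit.

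The members, the tests and the rule for naming contigs were chosen with earlier results of these data known. Named were the members with the lowest average, those at the limits of the choice, those lowest and highest in the 25 other fins, those called lower in most groups, the 2 contigs outside the set most like it, and per comparison at most 2 higher and 2 lower members with the largest differences among those called, or the 2 smallest p-values where none was. Fin and liver arrays share fish numbers in the control and Cd groups, but the labels do not say that these mark the same animals. The numbers were therefore not taken as pairs in the main test. Deviations of same-numbered arrays from their group means correlated between -0.19 and 0.17, which cannot show whether the animals were the same.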

Additional observations from a re-analysis of the deposited data

Results flagged for a closer look

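In 170 sets of 4 or 5 arrays of a group, 14 had a highest or lowest array that was flagged. Its gap to the nearest other array exceeded Dixon's 95% critical value for the range. About 1 in 20 unselected sets of normal values would be flagged. Most sets here were of contigs named for extreme values in these same data, so the count is not read against that rate. For the mean over members the flagged arrays were Cd fin fish 45, at 1.03, and control fin fish 9, at -1.72. Fish 45 also stood apart among Cd fins in contig_15859 (-0.50), contig_1726 (1.92) and contig_11347 (4.98). The 300 ng/g PCB fin of fish 33 stood apart in contig_8975 (-0.13) and contig_130 (0.52). Among 50 ng/g PCB fins, fish 26 stood apart in contig_1726 (1.58) and fish 27 in contig_7138 (3.88). The other sets were contig_859 in Gironde eel A302 (1.31), contig_11347 in Certes eel A203 (-3.98), contig_6291 in the Cd liver of fish 48 (-1.12), contig_7138 in the Cd liver of fish 47 (-8.43) and contig_8975 in the control liver of fish 7 (1.04).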

How the results depend on the processing

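Counts below are of members called in limma, and the cause of a change was not tested. A setting can change the calls of every contig, and the share of all contigs is not given beside these counts. They therefore show how the counts moved and not how members compare with other contigs. With at least 4 values per group 3 members were called lower in Gironde fins, 7 differed between Gironde and Garonne, 14 between the PCB doses and 0 between Garonne and Certes. Recentring gave 13 lower in Gironde, 15 in Garonne and 13 in Cd fins, 6 for 50 ng/g against control, 5 for Gironde against Certes and 1 for Garonne against Certes. Scaling to one spread gave 10 lower in Gironde, 8 in Garonne, 2 at 50 ng/g and 17 at 300 ng/g, and 5 between the doses, 16 for Gironde and 0 for Garonne against Certes. Quantile normalization gave 10, 10, 3 and 20 lower in the same groups, 33 in Cd fins, 6 between the doses and 19 for Gironde against Certes. Array weights gave 11 lower in Gironde, 61 at 300 ng/g and 53 in Cd fins, 22 for 50 ng/g and 1 for 300 ng/g against control, 1 for control, 28 for Gironde and 5 for Garonne against Certes. Fits of only the arrays concerned gave 0 lower in Gironde, at 50 ng/g and in Cd fins and 24 at 300 ng/g, 13 between the doses, and 17 and 1 for Gironde and Garonne against Certes. Turning the sign of fish 26 gave 0 lower at 50 ng/g. A fit without the Gironde, 50 ng/g and fish 45 fin arrays, chosen after seeing the data, gave 58 lower at 300 ng/g, 43 in Cd fins and 6 for Garonne against Certes.

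Leaving out 1 array gave 2 to 6 members lower in Gironde, 22 to 27 in Garonne, 0 to 4 at 50 ng/g, 27 to 32 at 300 ng/g and 7 to 30 in Cd fins. It gave 12 to 19 between Gironde and Garonne, 15 to 24 between the doses, 4 to 12 for 50 ng/g against control, 0 to 1 for Cd against control fins, 7 to 14 for Gironde and 1 to 3 for Garonne against Certes, and 0 in each case for the other comparisons. These counts of called members are also without the share of all contigs, so they do not compare members with other contigs. The choice itself gave 94 to 112 members without 1 of its 20 arrays, and 67 of the 103 were kept whichever array was left out. It gave 164 members at a limit of -0.5, 57 at -1 and 47 with all 10 values in each tissue. With fish number as a replicate block, 0 members passed for the difference between Cd effects, as without it.

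The mean over members without 1 array ran from -0.16 to 0.04 in Gironde, -1.46 to -1.26 in Garonne, -1.23 to -1.05 in Certes, -1.20 to -0.58 in Cd, -1.42 to -1.31 in control, -0.16 to -0.04 in 50 ng/g and -1.45 to -1.34 in 300 ng/g fins, and from -1.24 to -1.13 in Cd and -1.46 to -1.24 in control livers. Over the 9 members with a value on all 45 arrays it was -1.11 in Gironde, -1.35 in Garonne, -1.56 in Certes, -0.41 in Cd, -1.14 in control, -0.20 in 50 ng/g and -1.17 in 300 ng/g fins, -0.68 in Cd and -0.86 in control livers. Recentring gave -0.60 in Gironde, -0.64 in Garonne and -0.41 in Certes fins and -1.44 in Cd livers. Scaling gave -0.97 in Garonne and -1.16 in 300 ng/g fins. Turning the sign of fish 26 reversed contig_8975 at 50 ng/g (0.072) and contig_15284 against control (-0.94). Of the other values of named contigs under an alternative, 468 kept direction and side of the threshold, 42 lost the call and 2 gained one. Signal over background was not assessed, as the scanner table was not used.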

Other observations

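The 11 members with an average of F and L at or below -2 were mostly below 0 in 3 of the fin groups that did not choose them, Garonne, 300 ng/g PCBs and Cd. All 11 had a mean below 0 in Garonne fins, with a median of -3.30, and at 300 ng/g PCBs, with a median of -3.56. In Cd fins 10 of 11 did, with a median of -1.87. In Gironde fins 6 of 11 did, with a median of -0.07, and at 50 ng/g PCBs 7 of 11, with a median of -0.94. Over all contigs, 47.4% of group means were below 0 in Garonne fins, 49.6% at 300 ng/g and 45.9% in Cd fins. The share was 52.0% in Gironde fins and 43.9% at 50 ng/g. Of these 11 contigs, 7, 6, 8 and 7 held a value on the Gironde arrays A302, A305, A306 and A310, and all 11 did on A315. Over the 5 arrays of a group they held 70.9% of possible values in Gironde, 72.7% in Garonne and 76.4% in control livers. In the other groups this share lay between 81.8% and 98.2%. Of the other 92 members, 81, 78, 77 and 79 held a value on those 4 arrays and 83 on A315. On Garonne arrays 57.1% of members held a value on average, against 50.1% of all contigs.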
